A study of Homo sapiens with 2 samples.

Results

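The genes described here encode the proteins of the early spliceosome: the Sm ring, the U1 and U2 small nuclear ribonucleoproteins (snRNPs), and the U4/U6.U5 tri-snRNP with the LSm ring of U6. The 49 members were taken from a list of gene symbols by complex, a rule with no threshold on a measured value, and all 49 were found among the 19927 gene rows of the count table. The study sequenced messenger RNA from Huh7 cells, an established human hepatocellular carcinoma line. One culture carried a short hairpin RNA aimed at PPIL1 (title shPPIL1#1, genotype PPIL1 knockdown, called shPPIL1 here), and the other carried a control hairpin (shControl, genotype WT), with 1 library per group. Both cultures were grown in DMEM with serum and antibiotics, and the way the hairpins were delivered or selected is not given in the sources used here. With 1 library per group the differences have no replicate check and were not tested between conditions, and "higher" or "lower" describes the shPPIL1 library against the shControl library.

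Introns are removed by a spliceosome that is rebuilt on each of them from snRNPs. Sm proteins form a ring around the U1, U2, U4 and U5 snRNAs, and LSm2 to LSm8 form a similar ring at the end of U6. U1 pairs with the 5′ splice site, the U2AF heterodimer reads the 3′ splice site, and U2 with SF3A and SF3B settles on the branch site, after which the tri-snRNP joins. PPIL1, a nuclear cyclophilin (a peptidyl-prolyl isomerase), enters later, in the activated spliceosome, so the proteins described here act before or around the step at which it is present.

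The libraries held 41165401 (shPPIL1) and 41015345 (shControl) counted reads, and 12540 genes reached 1 CPM (a read count scaled to library size) in at least 1 of them. PPIL1, the targeted gene, had 104 reads in the shPPIL1 library and 1505 in the shControl library, which left 6.79% of the control level (exact 95% counting interval 5.51 to 8.29%). Hepatocyte markers were abundant in both libraries, with AFP at 4612 FPKM in shPPIL1 and 4564 FPKM in shControl cells (FPKM, the deposited level per kilobase of gene, scaled to library size). Of 8 such markers, 6 were higher in shPPIL1 cells by their counting intervals, 0 lower and 2 had an interval including 1, with ratios from 0.997 for AFP to 1.18 for FGB and a median log2 ratio of 0.07. By the same rule, 24.6% of the 12540 genes were higher and 26.4% lower. Among the 7929 genes at 20 CPM or more these shares were 27.5% and 32.0%. Among 12 markers of other cells, 5 reached 1 CPM, of which 1 was higher, 3 were lower and 1 had an interval including 1. The higher one was the fibroblast collagen COL3A1, with 48 reads in shPPIL1 and 16 in shControl cells, a ratio of 2.95 (1.64 to 5.56). Of the others, the leukocyte gene PTPRC had 10 reads in shPPIL1 and 4 in shControl cells, the T-cell gene CD3E 2 and 1, and the endothelial gene KDR 0 in both. The summed FPKM of the 4 fibroblast markers was 2.33 in shPPIL1 and 1.91 in shControl cells, that of the 4 endothelial markers 1.34 and 1.58, and that of the 4 immune markers 199 and 243, nearly all of it LYZ. The part of these markers in the ratios below was not tested.

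The transcripts of the early spliceosome proteins stood at nearly the same levels in both libraries, with a slight balance toward lower values in shPPIL1 cells. Each ratio is shPPIL1 over shControl on library sizes scaled by the TMM method, with an exact 95% interval for counting error. Of the 49 members, 3 were at least 20% lower with an interval excluding 1 (U2AF1, USP39 and SF3B5), or 6.12%, against 6.82% of all 12540 genes kept. A ratio at least 25% higher, the same fold in the other direction, was found for 0 of 49, against 5.91% of all genes kept. The share of lower members is near the background, and the 49 genes do not stand out by it. Past 1.1-fold, 9 members were lower (18.4%, against 19.0% of all genes kept) and 4 were higher (8.16%, against 17.5%). Past 1.5-fold, 1 was lower, the U2AF1 row (2.04%, against 2.22%), and 0 were higher (against 2.02%). At any fold, 19 members (38.8%) had an interval below 1, 8 (16.3%) an interval above 1 and 22 an interval including 1, where over all genes kept 26.4% lay below 1 and 24.6% above. With libraries scaled by their totals, the intervals of SNRPA, SF3A1, DDX42, RBM17 and PUF60 included 1, which left 14 lower (28.6%, against 22.9% of all genes kept under that scaling). The members are more deeply sequenced than most genes, which narrows their intervals. A background of like depth was computed under TMM only, not under total-count scaling. Among the 7929 genes with at least 20 CPM in a library, which include 48 of the members, 32.0% lay below 1 and 27.5% above, against 37.5% and 16.7% of those 48. Of the 7929 genes, 350 were at least 20% lower with an interval excluding 1, and 170 at least 25% higher. Of the 48 members, which leave out the U2AF1 row, 2 (4.17%) were lower and 0 higher by that rule. The median log2 ratio of the 49 members was -0.05, and that of all genes kept was -0.0017. Apart from U2AF1, the members ran from 0.747 to 1.17, and 36 of these 48 lay within 1.1-fold of equal expression. The lower and upper quartiles of the ratio over the 7929 genes were 0.927 and 1.06. Most of those genes thus lay within 1.1-fold too, and the members do not stand out by this count.

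**Figure D1:**
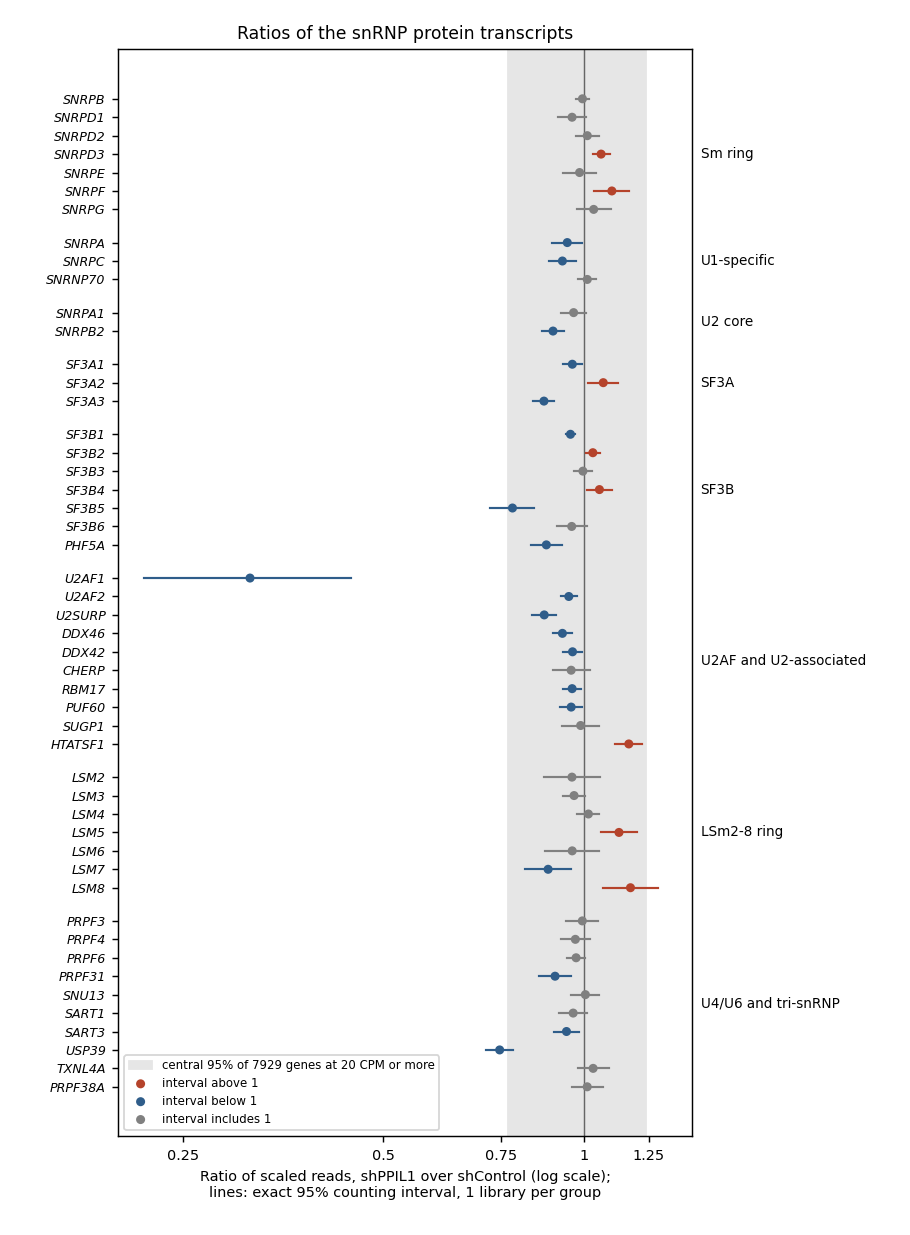
Ratio of scaled reads, shPPIL1 over shControl, on a log axis for the 49 genes, grouped by complex from top to bottom. Points are ratios and lines are exact 95% counting intervals from 1 library per group, coloured by whether the interval lies above, below or across 1. The grey band spans the central 95% of ratios of the 7929 genes with at least 20 CPM (0.768 to 1.24), and USP39 at 0.747 and U2AF1 at 0.315 are the members outside it.

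U2AF1 gave the lowest ratio of the members, and its reads cannot be assigned to it alone. It encodes the small U2AF subunit, which contacts the AG at the 3′ splice site, and lies on chromosome 21 from 43092956 to 43107578 on the minus strand (GRCh38.p14). A row of the count table named LOC102724594, on the same chromosome from 6484623 to 6499248, is a near-identical copy. The windows of 300 bases around the start of each gene, taken from RefSeq (GRCh38.p14), show how alike they are. They are printed 5′ to 3′ on the minus strand, and the capital marks the position where they differ, in the part after the start.
U2AF1, chr21:43107521-43107820: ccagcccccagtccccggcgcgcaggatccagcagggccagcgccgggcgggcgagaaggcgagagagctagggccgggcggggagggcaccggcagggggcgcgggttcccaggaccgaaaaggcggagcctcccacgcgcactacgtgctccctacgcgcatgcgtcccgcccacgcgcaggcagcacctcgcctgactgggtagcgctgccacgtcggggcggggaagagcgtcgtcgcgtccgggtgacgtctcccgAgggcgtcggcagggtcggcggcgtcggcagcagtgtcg
LOC102724594, chr21:6499199-6499498: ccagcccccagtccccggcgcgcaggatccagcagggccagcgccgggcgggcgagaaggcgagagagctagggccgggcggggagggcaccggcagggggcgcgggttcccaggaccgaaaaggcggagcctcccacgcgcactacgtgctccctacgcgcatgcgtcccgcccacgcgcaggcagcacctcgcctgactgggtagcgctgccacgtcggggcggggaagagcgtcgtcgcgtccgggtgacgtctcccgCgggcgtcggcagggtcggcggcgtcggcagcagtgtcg
The windows differ by 1 of 300 bases, A262C, with the U2AF1 base first and positions counted from 1 at the 5′ end of the window. The coding sequence is closer still. In GENCODE release 29, each of the U2AF1 coding sequences of 723 bases has a counterpart in the copy that is identical over all 723 bases. Of the 100-base windows of the U2AF1 transcript, 96.6% were found unchanged in the copy, so most reads of that length from one gene match the other as well.

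The reads on these rows moved in opposite directions. U2AF1 had 43 reads in shPPIL1 and 134 in shControl cells, or 1.08 and 3.39 FPKM, a ratio of 0.315 (0.218 to 0.448). LOC102724594 had 1058 reads in shPPIL1 and 145 in shControl cells, or 26.97 and 3.71 FPKM, a ratio of 7.17 (6.02 to 8.59). Of the reads on the pair, the U2AF1 row thus held 3.91% in shPPIL1 cells (exact 95% interval 2.84 to 5.23%) and 48.0% in shControl cells (42.0 to 54.1%). Their sum was 1101 reads in shPPIL1 and 279 in shControl cells, a ratio of 3.88 (3.40 to 4.44), so the direction for U2AF1 turns round when the rows are summed. Even the sum stood far below the partner subunit: U2AF2, which binds the pyrimidine tract, had 116 FPKM in shPPIL1 and 121 FPKM in shControl cells, where the pair summed to 28.1 and 7.10 FPKM. How reads that match both places were placed or dropped is not given in the sources used here, and its part in these values was not tested. Neither the row nor the sum can therefore be read as the expression of U2AF1.

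**Figure D2:**
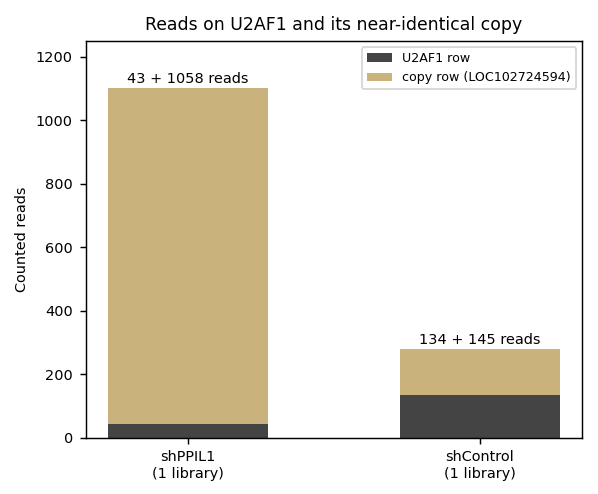
Counted reads on the U2AF1 row and on its near-identical copy row, stacked, in the shPPIL1 library (left) and the shControl library (right), 1 library each. The copy row held 1058 of 1101 reads in shPPIL1 cells and 145 of 279 in shControl cells.

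The Sm ring, shared by U1, U2, U4 and U5, had no gene below 1 by its interval. Of its 7 genes, 2 were higher, 0 lower and 5 had an interval including 1, with a median log2 ratio of 0.02. These counts stand beside 27.5% higher and 32.0% lower among the 7929 genes at 20 CPM or more. SNRPF, the gene of SmF, had 2261 reads in shPPIL1 and 2018 in shControl cells, or 131 and 117 FPKM, a ratio of 1.101 (1.04 to 1.17). SNRPD3, the gene of SmD3, had 9313 reads in shPPIL1 and 8627 in shControl cells, or 64.4 and 59.9 FPKM, a ratio of 1.06 (1.03 to 1.09). Exons of a gene on the opposite strand cover 18.2% of the exonic bases of SNRPD3. SNRPB, which encodes SmB and SmB′, was the most abundant of all 49 members, at 370 FPKM in shPPIL1 and 367 FPKM in shControl cells, with a ratio of 0.994 (0.972 to 1.02). SNRPD1, for SmD1, was the least abundant of the ring, at 17.0 and 17.5 FPKM, and had a ratio of 0.959 (0.915 to 1.01). The other members, SNRPD2, SNRPE and SNRPG, had ratios of 1.01, 0.985 and 1.03. The ring holds 1 copy of each of these proteins, whereas their transcripts spanned a wide range of FPKM in both libraries. SNRPB took 40.7% of the ring's summed FPKM in shPPIL1 and 41.7% in shControl cells, and SNRPD1 took 1.87% and 1.99%. Part of that range follows the gene lengths in the deposited FPKM, which were 1009 bases for SNRPB and 4797 bases for SNRPD1.

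The proteins that belong to U1 alone were slightly lower or level. SNRPC, for the C protein of U1, which steadies the pairing of U1 with the 5′ splice site, had 3616 reads in shPPIL1 and 3829 in shControl cells, or 112 and 119 FPKM, a ratio of 0.928 (0.886 to 0.971). SNRPA, for the A protein of U1, which binds a stem loop of U1 snRNA, had 2767 and 2881 reads, or 52.6 FPKM in shPPIL1 and 55.01 FPKM in shControl cells, a ratio of 0.944 (0.895 to 0.994), an interval that includes 1 under total-count scaling. SNRNP70, for the 70-kilodalton U1 protein, was the most abundant of these at 147 FPKM in shPPIL1 and 143 FPKM in shControl cells, and its interval included 1 (ratio 1.01, 0.980 to 1.04).

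U2 carries its own pair of core proteins, and beside them the SF3A and SF3B complexes. SNRPB2, for the RNA-binding B″ protein of U2, had 4958 reads in shPPIL1 and 5423 in shControl cells, or 51.0 and 56.0 FPKM, a ratio of 0.898 (0.864 to 0.934). Its partner SNRPA1, for the A′ protein, stood at 117 FPKM in shPPIL1 and 120 FPKM in shControl cells, with an interval including 1 (0.965, 0.924 to 1.01), and shared 21.9% of its 100-base windows with 2 other annotated genes, most of them with a processed pseudogene (18.8%). All 3 SF3A genes had intervals excluding 1, 1 higher and 2 lower, against 27.5% and 32.0% of the 7929 genes at 20 CPM or more. The interval of SF3A1 excluded 1 under TMM but not under total-count scaling. SF3A3, a zinc finger subunit, had 5545 reads in shPPIL1 and 6258 in shControl cells, or 49.98 and 56.6 FPKM, a ratio of 0.871 (0.839 to 0.903). SF3A1, the largest subunit, had 33.3 FPKM in shPPIL1 and 34.2 FPKM in shControl cells and a ratio of 0.960 (0.929 to 0.993). SF3A2, another zinc finger subunit, had 44.9 and 41.4 FPKM and was higher in shPPIL1 cells, with a ratio of 1.07 (1.01 to 1.13). Exons of another gene on the opposite strand cover 20.3% of its exonic bases, and whether the counting used strand is not given in the sources used here.

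SF3B, the U2 subcomplex that holds the branch site, had 3 genes lower, 2 higher and 2 with an interval including 1. Lower genes were 42.9% of the complex, against 32.0% of the 7929 genes at 20 CPM or more, of which 27.5% were higher. SF3B1, the large scaffold of SF3B that clamps the branch helix, was the most abundant of the complex by deposited FPKM. It had 26931 reads in shPPIL1 and 27732 in shControl cells, or 162 and 167 FPKM, a ratio of 0.954 (0.938 to 0.970). That rank goes with a gene length of 4047 bases in the deposited values, where the GENCODE transcript with its coding sequence has 6526. SF3B5, the smallest subunit of SF3B, which contacts SF3B3, had 1212 reads in shPPIL1 and 1525 in shControl cells, or 42.7 and 53.9 FPKM, a ratio of 0.781 (0.724 to 0.843), which is 1.28-fold lower. SF3B5 has 1 exon, on chromosome 6 from 144094884 to 144095573, and shares no 100-base window with another gene. Of the 7929 genes at 20 CPM or more, 247 had a lower ratio than SF3B5. PHF5A, the zinc finger subunit next to the branch-site pocket of SF3B1, had 2566 reads in shPPIL1 and 2872 in shControl cells, or 59.2 and 66.5 FPKM, a ratio of 0.878 (0.832 to 0.926). SF3B4, which contacts RNA beside the branch site, was higher at 72.3 FPKM in shPPIL1 against 67.6 FPKM in shControl cells (1.05, 1.01 to 1.0996), and its partner SF3B2 was higher at 107 against 102 FPKM (1.03, 1.01 to 1.06). SF3B6, the subunit that sits at the branch-site adenosine, and SF3B3, the least abundant at 22.1 FPKM in shPPIL1 and 21.9 FPKM in shControl cells, had ratios of 0.958 and 0.996 with intervals including 1. The share of the complex's summed FPKM that came from SF3B5 was 7.48% in shPPIL1 and 9.16% in shControl cells, and the order of levels was the same but for SF3B2 and SF3B6, which changed places.

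**Figure D3:**
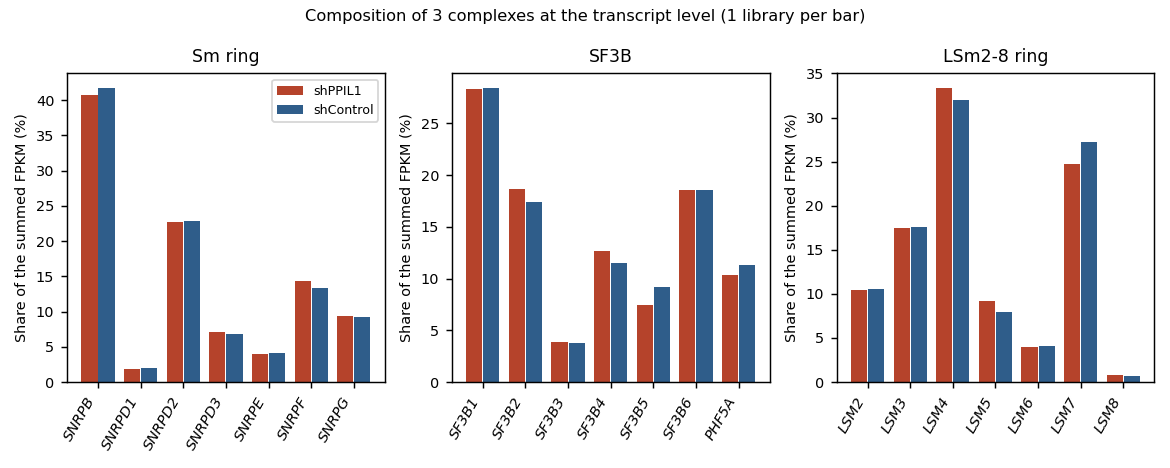
Share of the summed FPKM of each complex, in percent, taken by each of its genes in the shPPIL1 library (left bar of each pair) and the shControl library (right bar), for the Sm ring, SF3B and the LSm2-8 ring, 1 library per bar. SNRPB, SF3B1 and LSM4 took the highest share in both libraries, while SNRPD1, SF3B3 and LSM8 took the lowest.

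Among the U2AF and U2-associated proteins, 7 of 10 were lower, 1 was higher and 2 had an interval including 1, the U2AF1 row being counted among the lower. The lower genes made up 70.0% of the group, against 26.4% of all genes kept and 32.0% of those at 20 CPM or more. Without U2AF1 the group had 6 lower of 9. Under total-count scaling 4 of the 10 were lower, or 3 of 9 without U2AF1 (33.3%), against 22.9% of all genes kept. The share among genes at 20 CPM or more was not computed under that scaling, so 33.3% has no background of like depth. U2SURP, a U2-associated protein with an SR-like tail, had 4102 reads in shPPIL1 and 4625 in shControl cells, or 13.4 and 15.2 FPKM, a ratio of 0.871 (0.835 to 0.909). DDX46, the RNA helicase known as Prp5 in yeast, had 43.9 FPKM in shPPIL1 and 46.7 FPKM in shControl cells, a ratio of 0.928 (0.898 to 0.959). U2AF2, the helicase gene DDX42, and RBM17 and PUF60, whose products influence splice-site choice, were lower by smaller factors, with ratios from 0.949 to 0.961. The intervals of DDX42, RBM17 and PUF60 included 1 under total-count scaling. SUGP1 (0.988), a G-patch protein that binds SF3B1, and CHERP (0.956) had intervals including 1, and 28.2% of the exonic bases of CHERP lie within exons of other genes. HTATSF1 went the other way. It encodes a U2 snRNP partner that binds SF3B1 and has to leave before the branch site is engaged, and it lies on chromosome X from 136497229 to 136512346. It had 3905 reads in shPPIL1 and 3287 in shControl cells, or 34.1 and 28.8 FPKM, a ratio of 1.17 (1.11 to 1.22), and 539 of the 7929 genes at 20 CPM or more had a higher ratio.

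The LSm2 to LSm8 ring binds the end of U6 snRNA and had 2 genes higher, 1 lower and 4 with an interval including 1. Of the 7929 genes at 20 CPM or more, 27.5% were higher and 32.0% lower. LSM8, the subunit that sets this nuclear ring apart from the cytoplasmic one with LSM1, had 981 reads in shPPIL1 and 821 in shControl cells, or 1.92 and 1.62 FPKM, a ratio of 1.17 (1.07 to 1.29), the highest of the 49 members, though its interval overlaps that of HTATSF1. Its low FPKM goes with a gene length of 12384 bases in the deposited values, where the GENCODE transcript with its coding sequence is 1305 bases long. LSM5 had 2075 reads in shPPIL1 and 1807 in shControl cells, or 21.4 and 18.7 FPKM, a ratio of 1.13 (1.06 to 1.202). LSM7 was lower, with 1165 reads in shPPIL1 and 1296 in shControl cells, or 57.6 and 64.4 FPKM, a ratio of 0.883 (0.815 to 0.957). The remaining genes were level at this depth: LSM4, the most abundant of the ring at 77.8 FPKM in shPPIL1 and 75.5 FPKM in shControl cells, had a ratio of 1.02, and LSM2, LSM3 and LSM6 had ratios from 0.959 to 0.966, all with intervals including 1. Subunits that sit side by side in the ring thus lay on both sides of 1.

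USP39 was the lowest of the U4/U6 and tri-snRNP group and, apart from the U2AF1 row, of all members. It encodes a relative of the ubiquitin-specific peptidases (Sad1 in yeast) that is needed for the tri-snRNP to join, and lies on chromosome 2 from 85602861 to 85649283, with 13 exons. It had 3290 reads in shPPIL1 and 4327 in shControl cells, or 38.9 and 51.3 FPKM, a ratio of 0.747 (0.714 to 0.782), which is 1.34-fold lower. Of the 7929 genes at 20 CPM or more, 156 had a lower ratio. USP39 shares no 100-base window with another gene, and no exon of another gene covers its exonic bases. PRPF31, which clamps U4 snRNA and SNU13 together, had 2590 reads in shPPIL1 and 2813 in shControl cells, or 39.0 and 42.5 FPKM, a ratio of 0.905 (0.857 to 0.955). Exons of other genes, on the opposite strand, cover 38.01% of its exonic bases. SART3, the factor that recycles U6 and U4/U6, had 25.8 FPKM in shPPIL1 and 27.1 FPKM in shControl cells, a ratio of 0.941 (0.902 to 0.982).

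The other 7 genes of that group had intervals including 1. The 3 lower genes were 30.0% of the group and 0 were higher, against 32.0% and 27.5% of the 7929 genes at 20 CPM or more. SNU13, the protein that binds the kink-turn of U4 snRNA, was the most abundant at 60.8 FPKM in shPPIL1 and 59.7 FPKM in shControl cells, with a ratio of 1.00 (0.957 to 1.05). The U4/U6 proteins PRPF3 and PRPF4, which bind each other, had ratios of 0.994 and 0.970, the bridging protein PRPF6 0.973, and SART1, a tri-snRNP protein, 0.963. The U5 protein TXNL4A (1.03) and PRPF38A (1.01), which enters around the time the tri-snRNP joins and was the least abundant at 13.04 FPKM in shPPIL1 and 12.7 FPKM in shControl cells, lay just above 1. Where intervals include 1, a difference was not detectable at this depth, and the interval gives the size that counting error allows.

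**Figure D4:**
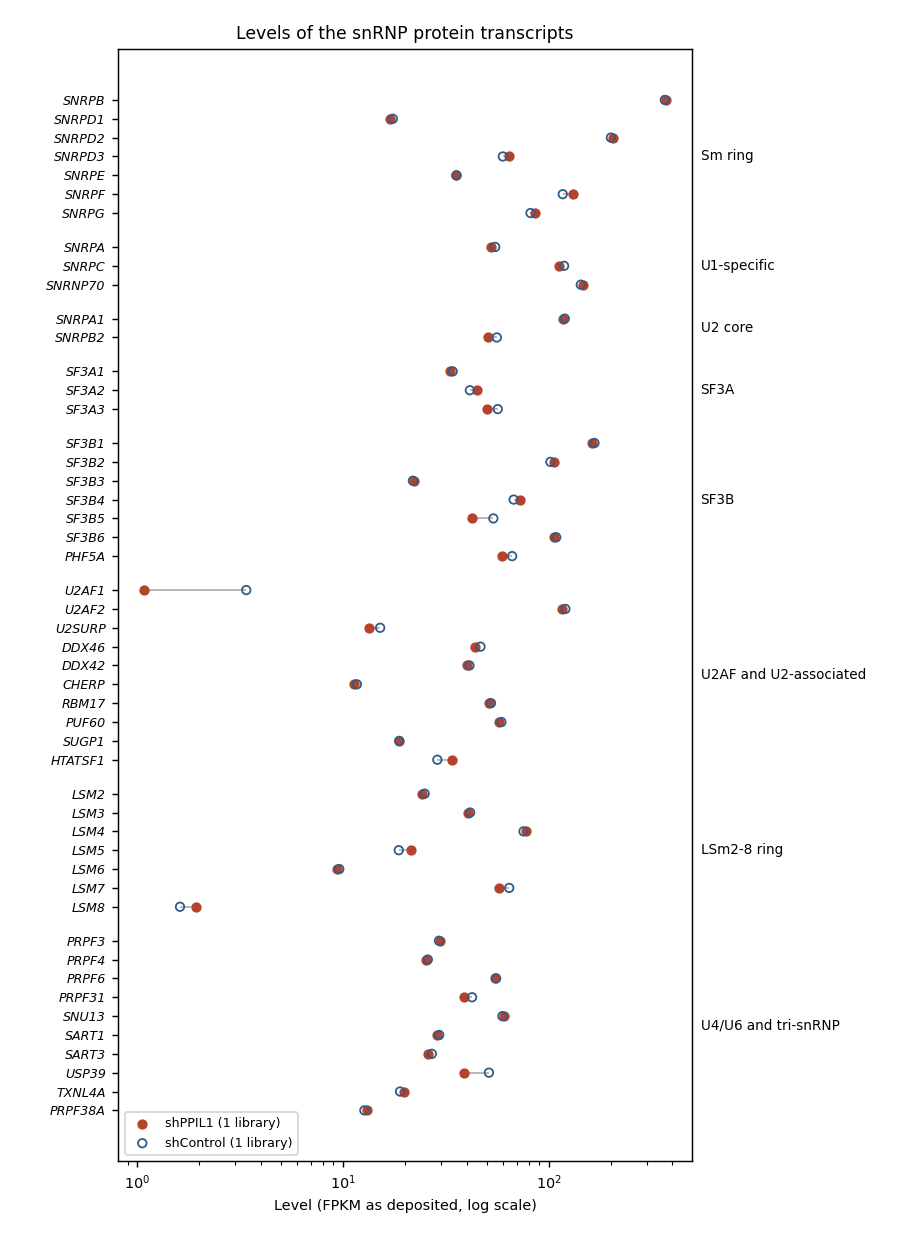
Level of each of the 49 genes in FPKM, on a log axis, in the shPPIL1 library (filled) and the shControl library (open), 1 library each, grouped by complex. SNRPB is highest in both libraries at 370 and 367 FPKM, and the U2AF1 row and LSM8 lie far to the left of the others.

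Summed over each complex, the FPKM differed little between the libraries. The deposited FPKM follows the library totals, whereas the ratios of single genes use TMM sizes. Total-count scaling puts ratios 0.02 higher in log2 than TMM. The sum over the Sm ring was 910 in shPPIL1 and 880 in shControl cells, a ratio of 1.03. The other sums were slightly lower in shPPIL1 cells, with ratios from 0.953 for the U4/U6 and tri-snRNP group (336 and 352 FPKM) to 0.986 for the LSm ring (233 and 236 FPKM), U1 (0.982), the U2 core (0.957), SF3A (0.969), SF3B (0.970) and the U2AF group (0.973) lying between. Summed as scaled CPM, the LSm ring lay at 1.002, so its direction is not fixed by these data. Of the 8 groups, 6 kept the same order of levels among their genes. Levels within a group can lie far apart, as in the Sm ring (17.0 to 370 FPKM in shPPIL1 cells). Small ratios leave such an order unchanged, and the order in other sets of genes was not examined. Of 29 other spliceosomal genes on lists of U5, U1-associated, branch-site and 3′ splice-site, and tri-snRNP or B-complex proteins, 10 were lower (34.5%). Of the rest, 5 were higher (17.2%) and 14 had an interval including 1. The median log2 ratio of the 29 genes was -0.02. Over all genes kept, 26.4% were lower and 24.6% higher, and among the 7929 genes at 20 CPM or more 32.0% and 27.5%. Of 6 measured genes of other Sm and LSm proteins, which work outside these complexes, 3 were lower and 3 higher.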

How the data were processed

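Polyadenylated RNA of Huh7 cells was sequenced in 1 shPPIL1 and 1 shControl library, per the labels' protocols. The deposited count table holds whole-number read counts by gene symbol from the authors, who also deposited FPKM for each library. Each library was tied to its column by the name in its label, and 7 further columns of the count table, which match no label, were not used. The submitters' processing notes name the build hg38. Aligner, counter, annotation, strand setting and the handling of reads with several matches: not given in the sources used here. Count, library total and FPKM together gave a whole-number gene length, within 0.001 bases, for 99.9% of genes detected in a library.

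Libraries were scaled by TMM over all genes in edgeR 4.0.16 under R 4.3.3 (factors 1.01 for shPPIL1, 0.993 for shControl), and genes at 1 CPM or more in at least 1 library were kept. Ratios carry exact 95% intervals (Clopper-Pearson, SciPy 1.17.1). These cover counting error of the reads only and leave out variation between cultures and library preparations. They may be too narrow even for counting error, since PCR copies are not independent molecules. Steps were tested on simulated data. The members and lists were chosen with earlier results of these data known, although the rule for the members uses gene names alone. In each complex the members with the 3 interval bounds farthest from 1 and those highest and lowest in FPKM were named with their values, and of other lists up to 2 genes by the bound, of which 1 gene is not reported here. Fewer cells of a type and less RNA per cell cannot be told apart in bulk samples. Shared 100-base windows, taken every 10 bases of the transcript with the longest coding sequence, and exon overlaps came from GENCODE release 29 (GRCh38), and promoter windows from RefSeq, which held 40 of the 49 members. The alternatives tried were total-count, upper-quartile and DESeq2 1.42.0 scaling, other filters and folds, means, log2(FPKM + 1) and leaving out groups of members.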

Additional observations from a re-analysis of the deposited data

How the results depend on the processing

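No paired analysis was possible because each group has 1 library, and for the same reason no replicate could be left out. With U2AF1 summed with its copy row, the ratio was 3.88, against 0.315 for U2AF1 alone and 7.17 for the copy alone, and the members at least 25% higher numbered 1 in place of 0. At a fold of 1.1, 4 members were higher (8.16%, against 17.5% of all genes kept) and 9 lower (18.4%, against 19.0%). At a fold of 1.5, 1 was lower (2.04%, against 2.22%). Other scalings shifted the log2 ratios by at most 0.02. Total-count scaling left 14 of the 19 lower members below 1 (SNRPA, SF3A1, DDX42, RBM17 and PUF60 were lost) and all 8 higher members above it. That took the lower genes of the U2AF group to 4 of 10 in place of 7. Those of U1 and SF3A went to 1 each in place of 2, a count per complex added after seeing the data. Over all genes kept, the lower share was 22.9% under total-count scaling and 26.4% under TMM. The median over the members ran from -0.06 to -0.03 over 11 alternatives, some of which leave members out, and their mean was -0.07. By its mean the U2AF group stood at -0.21 against a median of -0.06, a mean that includes the U2AF1 row. The SF3A median was -0.06. It became -0.13 without members that have at least 20% of their exonic bases overlapped by other genes, an alternative added after seeing the data. In SF3A this left out SF3A2 alone (20.3%), the higher gene. Without genes whose coding sequence or 3′ UTR holds the hexamer GATCAT (sense strand), the SF3A median became 0.019, with fewer genes left. That motif was chosen earlier on these same libraries and is held by 46.9% of members and 46.4% of matched genes kept. That alternative also moved the SF3B median to -0.19 from -0.06. The cause was not tested. Summed as CPM in place of FPKM, the ratios were 1.02 for the Sm ring, 0.927 for the U2 core, 0.944 for SF3A, 0.957 for the U2AF group, 0.976 for U1, 0.976 for SF3B and 0.947 for the tri-snRNP group, in the direction of the FPKM sums, whereas the LSm ring turned to 1.002 in place of 0.986. The CPM sums differ from the FPKM sums both in the weight of gene length and in the scaling of the libraries. Depth limits the U2AF1 row most, with 43 and 134 reads.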

Other observations

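LSM11 and LSM10, the proteins that take the places of SmD2 and SmD1 in the ring of the U7 snRNP, which processes histone messenger RNA, had intervals excluding 1 in opposite directions. LSM11 had 439 reads in shPPIL1 and 302 in shControl cells, a ratio of 1.43 (1.23 to 1.66), whereas LSM10 had 580 and 764 reads, a ratio of 0.746 (0.668 to 0.832). ZRSR2, a relative of U2AF1 that reads the 3′ splice site of minor introns, had 498 reads in shPPIL1 and 370 in shControl cells, a ratio of 1.32 (1.15 to 1.52). DHX15, a helicase that releases spliceosomal complexes, had 19841 and 20924 reads, a ratio of 0.932 (0.914 to 0.9499).

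Among the U1-associated factors, TIAL1 had 5406 reads in shPPIL1 and 6177 in shControl cells, a ratio of 0.860 (0.829 to 0.892). Among the U5 proteins, the GTPase gene EFTUD2 had 6805 reads in shPPIL1 and 7952 in shControl cells, a ratio of 0.841 (0.814 to 0.869), and PRPF8, the large scaffold of the active site, had 10468 and 11291 reads, a ratio of 0.911 (0.887 to 0.936). Among other tri-snRNP and B-complex proteins, SNRNP27 had a ratio of 0.885 (0.832 to 0.941) and WBP4 of 0.867 (0.788 to 0.953).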
